A study of Mus musculus with 16 samples.

Results

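The 10 genes followed here through the RiboTag libraries of the neonatal cochlea were Igdcc3, Hic2, Igf2bp1, Igf2bp2, Igf2bp3, Lin28a, Lin28b, Hmga2, Trim71 and Arid3a. They were taken by gene symbol as known let-7 targets and oncofetal genes, and several were chosen by a measured value, being among the genes most enriched by the immunoprecipitation (IP) over input in these libraries. The IP over input values below are therefore a description of how the genes were chosen and carry no test. All 10 are among the 47729 genes with values in the deposited tables, and 9 of them were among the 16994 genes tested. Lin28a was too low to be tested.

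Let-7 is a family of microRNAs that becomes abundant as tissues mature and that lowers its targets by pairing, through its seed, with sites in the 3′ UTR of their mRNAs. Lin28a and Lin28b, RNA-binding proteins of early embryonic cells, block the maturation of let-7 precursors and are let-7 targets themselves, so that the pair forms a switch between an immature and a mature state. Many let-7 targets are oncofetal, that is, active in the fetus, silenced in most adult tissues and active again in tumours. In the cochlea, let-7 rises and Lin28b falls around birth, as the supporting cells lose the ability to divide and to replace hair cells.

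The libraries came from cochleae at postnatal day 4, with the spiral ganglion, lateral wall and Reissner's membrane removed by the study. Control mice were GLAST CreERT/+; Rpl22 HA/+, in which tamoxifen makes cells that express GLAST-CreERT, mostly the greater epithelial ridge (GER) and the neighbouring inner phalangeal cells, carry an HA tag on the ribosomal protein Rpl22. DTR mice were Lgr5 DTR/+; GLAST CreERT/+; Rpl22 HA/+, in which diphtheria toxin kills the cells that express the toxin receptor from Lgr5. According to the study's methods both genotypes received diphtheria toxin and tamoxifen, whereas the sample labels give no treatment for the controls. Each of the 4 pools per genotype gave 1 input library, the RNA of the whole homogenate, and 1 IP library, the RNA precipitated through the HA tag, and cochleae of several mice were pooled. This made 16 libraries, with 4 of input and 4 of IP in each genotype.

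Counted reads ranged from 28089836 to 41966310 per library, so that 3 reads were worth between 0.0715 and 0.107 CPM (the share of counted reads that fell on a gene, times 1000000). Marker lists of hair cells, neurons, Schwann cells, endothelium, macrophages and red blood cells were lower in IP than in input, with medians between -1.11 and -2.16 on the log2 scale in control. The mesenchyme and cartilage lists were lower by less, with medians of -0.34 and -0.78 in control. Their summed levels in control IP were 5010 to 6212 and 10969 to 18012 CPM. The 5 markers of GLAST+ supporting and GER cells had a median of -0.20 and went both ways. In control, Fabp7 was at 239 to 261 CPM in input and 307 to 421 CPM in IP (LFC 0.62), and Sox2 at 63.8 to 73.6 and 83.1 to 96.1 CPM (LFC 0.37), both without overlap, whereas Tecta and Otoa were lower in IP, with an LFC of -0.65 and -1.38. Slc1a3, the gene that encodes GLAST, was at 281 ± 14.3 CPM in control input and 236 ± 21.9 CPM in control IP (SD, n = 4). In bulk libraries such as these, fewer cells of a type and less RNA per cell cannot be told apart.

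The sequences that define the family come first, since all 10 genes share a match to them. Of 12 mature mouse microRNAs of the let-7 family and its seed relatives in RefSeq (GRCm38.p6), 11 have the seed of let-7a at bases 2 to 8, and let-7j differs in it. The seed is in capitals in the examples that follow.
mmu-let-7a-5p: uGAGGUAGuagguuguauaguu
mmu-let-7c-5p: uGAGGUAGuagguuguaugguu
mmu-let-7g-5p: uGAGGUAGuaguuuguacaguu
mmu-miR-98-5p: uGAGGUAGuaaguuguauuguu
mmu-let-7j: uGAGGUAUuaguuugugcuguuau

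The longest annotated 3′ UTR of each gene (GENCODE M21, GRCm38) was searched on the sense strand for 3 kinds of match: the 8mer CTACCTCA, which pairs with the whole seed and ends in A, the 7mer-m8 CTACCTC without that A, and the 7mer-A1 TACCTCA, which lacks the first pair. Each position was counted once, under the longest match. All 10 genes had at least 1 8mer, against 4.36% of the 14436 tested genes with an annotated 3′ UTR, and any of the 3 matches was found in 18.7% of these. Over the union of all annotated UTRs the shares were 4.97% and 20.8%, and again 10 of 10. The genes held 39 matches in all, 17 of them 8mers. Trim71 had 4 8mers, Igf2bp1 had 3, Igdcc3 and Lin28a had 2 each and the other 6 genes had 1, while 2 or more were found in 0.222% of tested genes. Since the genes were named as let-7 targets, the matches describe the label and are no test of it, and a match is not a measured site. All 17 are listed with the 24 bases that end at the match, to show that the 8 letters recur in unlike surroundings; the match is in capitals, and positions count from the first base of the UTR.
Igdcc3, UTR position 388, chr9:65185706-65185729 (plus strand): ttgtgactctcagcacCTACCTCA
Igdcc3, UTR position 468, chr9:65185786-65185809 (plus strand): gagcccgaaagcactcCTACCTCA
Trim71, UTR position 166, chr9:114512472-114512495 (minus strand): caacattgcctaagtcCTACCTCA
Trim71, UTR position 262, chr9:114512376-114512399 (minus strand): aagtgataatttctatCTACCTCA
Trim71, UTR position 3591, chr9:114509047-114509070 (minus strand): gtttagtatggattttCTACCTCA
Trim71, UTR position 3617, chr9:114509021-114509044 (minus strand): tttggcaaaaagttgtCTACCTCA
Igf2bp1, UTR position 1715, chr11:95961778-95961801 (minus strand): tgctgtgcgaagtaaaCTACCTCA
Igf2bp1, UTR position 4136, chr11:95959357-95959380 (minus strand): ccagcagtgctattaaCTACCTCA
Igf2bp1, UTR position 4730, chr11:95958763-95958786 (minus strand): agtataaatggatgaaCTACCTCA
Lin28a, UTR position 909, chr4:134005189-134005212 (minus strand): tgcacagcctgttgaaCTACCTCA
Lin28a, UTR position 1547, chr4:134004551-134004574 (minus strand): tgagatcgccacaaacCTACCTCA
Hic2, UTR position 3717, chr16:17262869-17262892 (plus strand): accagggacccctcccCTACCTCA
Arid3a, UTR position 1974, chr10:79953894-79953917 (plus strand): caaggcaagtttctttCTACCTCA
Lin28b, UTR position 36, chr10:45381022-45381045 (minus strand): cacccgggcgggaagtCTACCTCA
Hmga2, UTR position 58, chr10:120364224-120364247 (minus strand): cgccgacattcaatttCTACCTCA
Igf2bp3, UTR position 548, chr6:49086787-49086810 (minus strand): gtgcatttttactcaaCTACCTCA
Igf2bp2, UTR position 1313, chr16:22059473-22059496 (minus strand): aacacacaaataaaagCTACCTCA

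The longest UTRs belonged to Igf2bp1 with 6337 bases, Trim71 with 5512, Lin28b with 4445 and Hic2 with 4262, and 9 of the 10 were longer than the median of tested genes, 1354 bases. Igdcc3 was the exception, with both of its 8mers in a UTR of 538 bases. Across genes, IP over input in control was higher where 8mers were present. With the 10 genes left out, the median log2 fold change (LFC) was -0.03 for the 13807 genes without an 8mer, 0.19 for 591 genes with 1, 0.26 for 24 genes with 2, and 2.61 for 5 genes with 3 or more. The quartiles of the genes with 1 8mer, -0.22 and 0.70, overlapped those of the genes without one, -0.40 and 0.30. Those 5 genes, named here after their values were seen, were Fign, Nr6a1 and Fignl2 at an LFC of 3.48, 3.14 and 2.61, Trim6 at 1.38, and Mcf2l, which had 7 8mers and an LFC of -0.82. Genes are not independent replicates, and the values are a description. Genes with an 8mer also had a higher median within each of 4 equal classes of UTR length. In the shortest class it was 0.62 for only 27 genes with an 8mer, against 0.0019 for 3586 without. In the longest it was 0.14 for 316 genes against -0.07 for 3286. The part of UTR length in these differences was not tested. After damage the medians of the same classes in IP were close to each other for genes with no, 1 and 2 8mers, at 0.00, -0.03 and -0.02, and the 5 genes with 3 or more had a median of -0.23, with quartiles of -0.29 and 0.03.

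**Figure D1:**
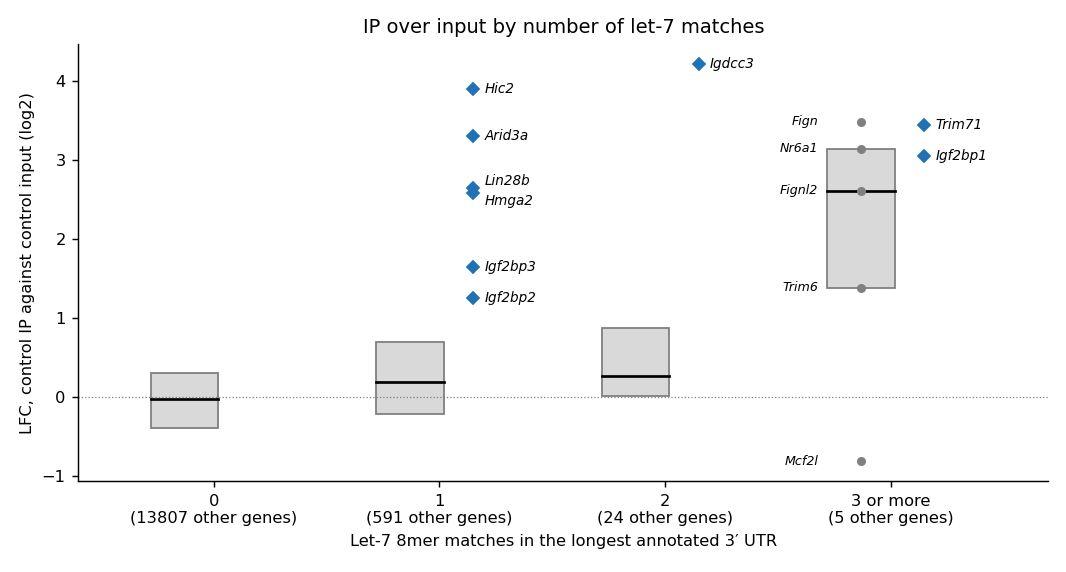
The LFC of control IP against control input (y axis, log2) is plotted by the number of let-7 8mers in the longest annotated 3′ UTR (x axis). Grey boxes give the quartiles and the median of all other tested genes, grey points the 5 other genes with 3 or more, and blue diamonds the 9 tested genes of the group, which run from 1.25 for Igf2bp2 to 4.21 for Igdcc3 and lie above the upper quartile of their class except Igf2bp1 at 3.05.

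Igdcc3, a transmembrane protein of the immunoglobulin superfamily, had the highest level of the group in IP. In control it stood at 32.6, 43.7, 50.3 and 42.7 CPM in the 4 input libraries and at 829, 862, 770 and 639 CPM in the IP libraries. In DTR it stood at 29.3, 31.5, 34.3 and 42.2 CPM in input and at 561, 674, 601 and 526 CPM in IP. Input and IP were far apart in both genotypes, and the lowest IP library was replicate 4 in each. On the log2(quantile-normalised CPM + 0.5) scale used for every LFC here, IP over input was 4.21 in control and 4.21 in DTR, the highest of the 16994 tested genes in control and the second highest in DTR.

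Among the nuclear proteins, Hic2, a zinc finger repressor of transcription, was at 6.28 ± 0.586 CPM in control input and 102 ± 29.6 CPM in control IP (SD, n = 4). Its LFC was 3.90 in control and 3.94 in DTR, the fourth highest of all tested genes in both. Arid3a, a DNA-binding protein of the ARID family, was at 8.30 ± 0.141 CPM in control input and 89.1 ± 30.6 CPM in control IP, an LFC of 3.30 in control and 3.50 in DTR. Hmga2, which bends DNA and is a classic let-7 target, had 4.58, 4.93, 1.72 and 2.98 CPM in control input and 35.1, 29.4, 20.6 and 11.5 CPM in control IP. Its input and IP libraries did not overlap, with an LFC of 2.58 in control and 3.00 in DTR. Hic2 shares 3091 of its 6354 exonic bases with Gm26635 on the opposite strand. The strand setting of the counting was not given in the sources used here, so reads on the shared bases cannot be told apart between these 2 genes.

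Of the RNA-binding proteins, Trim71, an E3 ubiquitin ligase that binds mRNA and is kept on in pluripotent cells, was low in input and clear in IP. In control it stood at 1.74, 1.89, 1.60 and 2.10 CPM in input and at 30.9, 30.2, 25.6 and 17.1 CPM in IP, an LFC of 3.44. In DTR the LFC was 2.86. Lin28b was at 0.929, 2.34, 2.88 and 2.33 CPM in control input and at 14.4, 25.6, 20.4 and 6.93 CPM in control IP. Its lowest IP library was still above all its input libraries, with an LFC of 2.65 in control and 2.37 in DTR. Lin28a, its paralog, was barely read. Its read counts were 1, 0, 5 and 0 in control input, 10, 32, 29 and 11 in control IP, 2, 2, 5 and 1 in DTR input and 8, 3, 7 and 18 in DTR IP. All 4 control IP libraries were above all 4 control input libraries, DTR IP and DTR input overlapped, and no group reached 0.5 CPM in all 4 replicates.

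The 3 IGF2 mRNA-binding proteins protect and localise their target mRNAs in fetal tissue, and Igf2bp3 and Igf2bp2 had the smallest IP over input of the tested genes here. Igf2bp1 was at 12.1 ± 2.00 CPM in control input and 104 ± 18.1 CPM in control IP, an LFC of 3.05 in control and 2.07 in DTR. Igf2bp3 was at 23.1 ± 1.31 and 74.2 ± 8.52 CPM, an LFC of 1.65 and 1.38. Igf2bp2 was at 96.8 ± 12.4 and 232 ± 69.6 CPM, an LFC of 1.25 and 1.03, ranked 576 and 838 among the tested genes. It had the second highest IP level of the group and the smallest difference between IP and input. Igf2bp3 shares 1529 exonic bases with Malsu1 on the opposite strand.

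Across the group, 7 of 9 tested genes had an LFC of at least 2 in control and 7 in DTR, where 0.824% and 0.771% of all tested genes did. These counts use the values that picked the genes, and nothing is read from them. The medians were 3.05 in control and 2.86 in DTR, beside 0.00 and -0.03 over all tested genes. Removing smooth trends on gene length and GC content from each library left the LFC in control between 1.39 for Igf2bp2 and 4.11 for Igdcc3. The exons of the 10 genes span from 3604 bases for Igdcc3 to 9682 for Igf2bp1, with 9 above the median of tested genes of 3994 bases. By 4 equal classes of exonic length, the median LFC of all tested genes in control went from 0.06 in the shortest to -0.14 in the longest, and 6 of the 9 were in the longest.

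**Figure D2:**
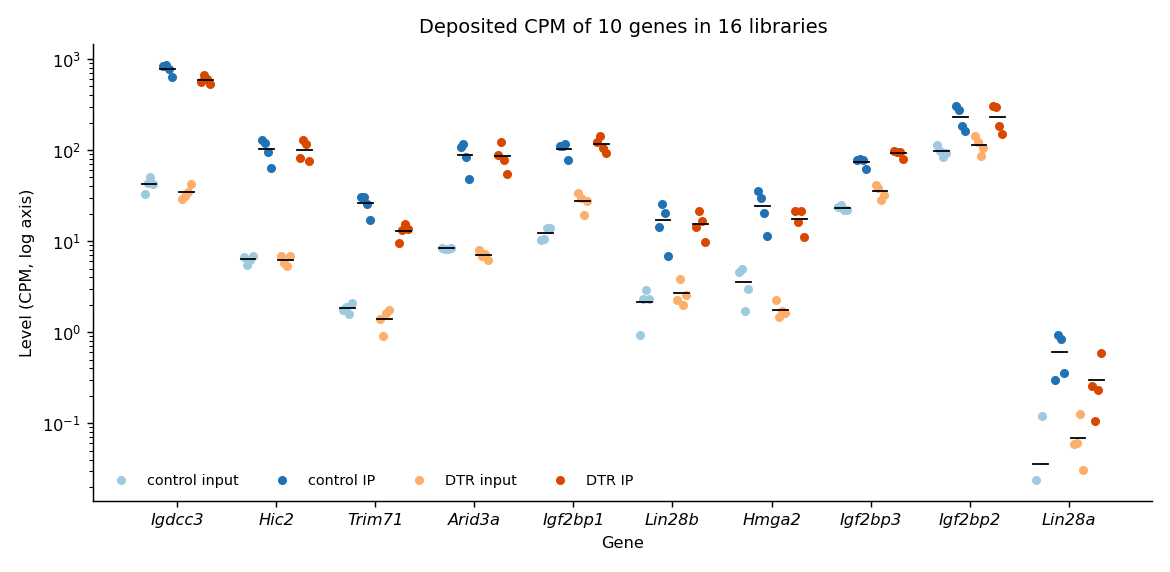
Deposited CPM (y axis, log scale) is plotted for each of the 10 genes in each of the 16 libraries, coloured by group, with a black line at each group's mean; 2 control input libraries of Lin28a at 0 are not drawn. For the 9 tested genes the IP points of a genotype lie above its input points, with the widest distance for Igdcc3 (mean 42.3 CPM in control input and 775 CPM in control IP).

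Per kilobase of exon, Igdcc3 led control IP at 215 CPM per kb, followed by Igf2bp2 at 31.3, Hic2 at 16.1, Arid3a at 16, Igf2bp1 at 10.7 and Igf2bp3 at 9.10. Hmga2 at 3.56, Trim71 at 2.78, Lin28b at 1.86 and Lin28a at 0.153 came last. The library ranges of neighbours overlapped from Hic2 down to Igf2bp3 and from Hmga2 down to Lin28b, and they did not overlap between Igdcc3 and Igf2bp2, between Igf2bp2 and Hic2, between Igf2bp3 and Hmga2, or between Lin28b and Lin28a. In control input the order was different. Igf2bp2 at 13.1 CPM per kb and Igdcc3 at 11.7 led with overlapping ranges, and Igf2bp3 followed at 2.84. Trim71, at 0.196, came last of the tested genes.

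The same pool often gave the weakest enrichment. In control, IP CPM over input CPM was lowest in pool 4 for 9 of 9 genes, for example 8.14 for Trim71 against 17.7, 16 and 16.1 in the other pools, and 2.98 for Lin28b against 15.5, 11.0 and 7.10. In DTR it was lowest in pool 4 for 7 of 9, and in pool 1 for Trim71 and Igf2bp3. Over all other tested genes, the slope of a pool's log2 IP over input on the mean of the other pools ranged from 0.880 in control pool 4 to 1.11 in control pool 1. In DTR the slope of pool 4, at 0.919, was not the lowest, with 0.896 in pool 1, 0.908 in pool 2 and 1.01 in pool 3. After removing group means, 32 of the 36 pairs of genes correlated positively over the 16 libraries (median r = 0.52, highest 0.80 for Hic2 with Arid3a), a description of libraries that share pools. Without the 4 libraries of replicate 4, the LFC in control was between 1.38 for Igf2bp2 and 4.31 for Igdcc3.

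**Figure D3:**
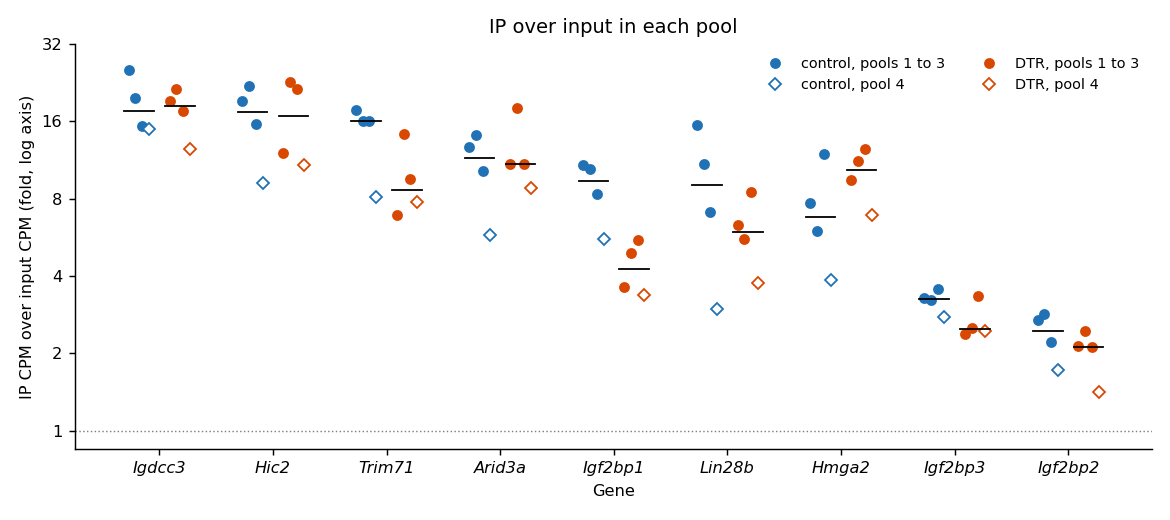
IP CPM divided by input CPM (y axis, fold, log scale) is plotted for each of the 4 pools per genotype of the 9 tested genes, with pool 4 as open diamonds and black lines at the medians. The control diamonds are the lowest control point of all 9 genes, and the Igf2bp1 ratios of DTR, from 3.38 to 5.53, lie below those of control, from 5.57 to 10.9.

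DTR IP was compared with control IP to ask whether these genes differed in the precipitated RNA, which was not of the tagged cells alone. The genotypes differ in the Lgr5 DTR allele and, by the labels, in treatment, as well as in the loss of Lgr5+ cells. These cannot be told apart here, and after damage means DTR against control throughout. Of the 9 tested genes, 1 fell and none rose, where 7.30% of all tested genes fell and 8.44% rose (limma, adjusted p under 0.05). With the replicate number as a block, 2 fell and 1 rose, where 11.8% of all tested genes fell and 12.7% rose. The numbers were taken to pair the libraries because those of the same number deviated together from their group means, with r of at least 0.29 for every pair. The median LFC of the 9 genes was -0.07, beside 0.00 over all tested genes.

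Trim71 was the gene that fell. Its IP libraries were at 30.9, 30.2, 25.6 and 17.1 CPM in control and at 9.58, 13.1, 15.4 and 13.5 CPM in DTR. Every DTR library was below every control library, and the smallest step was in replicate 4. The LFC was -1.0 ± 0.20 (SE, limma, adjusted p = 0.0019), and -1.18 to -0.84 with any 1 library or the whole of replicate 4 left out. In input, at 30 to 81 reads per library, Trim71 was at 1.83 ± 0.214 CPM in control and 1.41 ± 0.361 CPM in DTR (SD, n = 4), which overlapped. The LFC in input was -0.42, with a 95% confidence interval from -0.84 to 0.01 (limma, adjusted p = 0.23). Of the 5 markers of GLAST+ supporting and GER cells, 3 were lower in DTR IP (Fabp7, Sox2 and Tecta). Slc1a3 (LFC -0.11, limma, adjusted p = 0.50) and Otoa (LFC -0.04, limma, adjusted p = 0.90) did not pass. Their summed level was 3902 to 4106 CPM in control IP and 1755 to 2565 CPM in DTR IP, mostly from Tecta, with means of 2952 and 1563 CPM. Other lists differed between the IPs as well. Schwann cell markers were lower for 2 of 5 (summed 764 to 1193 CPM in control and 523 to 747 CPM in DTR). Mesenchyme markers were higher for 4 of 7 (5010 to 6212 and 6431 to 7945 CPM), cartilage markers for 2 of 4, macrophage markers for 2 of 5, hair cell markers for 2 of 8 and endothelial markers for 1 of 4. The part of these cells in the IP values of Trim71, Igdcc3 and Igf2bp3 was not tested.

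Igdcc3 in IP was lower in 3 of 4 DTR libraries than in every control library, and the DTR library of replicate 2, at 674 CPM, was above the control library of replicate 4, at 639 CPM. The LFC was -0.31 ± 0.15 (SE, limma, adjusted p = 0.18). It passed the threshold with the replicate block (limma, adjusted p = 0.021), with libraries centred on their medians (LFC -0.43, limma, adjusted p = 0.033), with edgeR (LFC -0.46, adjusted p = 0.033) and with DESeq2 (LFC -0.46, adjusted p = 0.014). Igf2bp3 went from 77.1, 80.0, 78.2 and 61.6 CPM in control IP to 97.7, 96.2, 95.9 and 79.1 CPM in DTR IP, higher in each pair of the same number. The LFC of 0.30 ± 0.11 (SE, limma) had an adjusted p of 0.078, and of 0.018 with the replicate block. Hmga2 in IP had 35.1, 29.4, 20.6 and 11.5 CPM in control and 21.3, 16.4, 21.4 and 11.1 CPM in DTR, which overlapped (LFC -0.43, 95% confidence interval -1.02 to 0.16).

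The other 5 tested genes did not pass the threshold in IP with or without the block. The LFC was 0.15 for Igf2bp1, with a 95% confidence interval from -0.21 to 0.51, and 0.00 for Igf2bp2, from -0.47 to 0.47. It was -0.03 for Hic2, from -0.45 to 0.38, -0.07 for Arid3a, from -0.54 to 0.39, and -0.09 for Lin28b, from -0.75 to 0.58. These intervals do not show that the levels were equal.

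**Figure D4:**
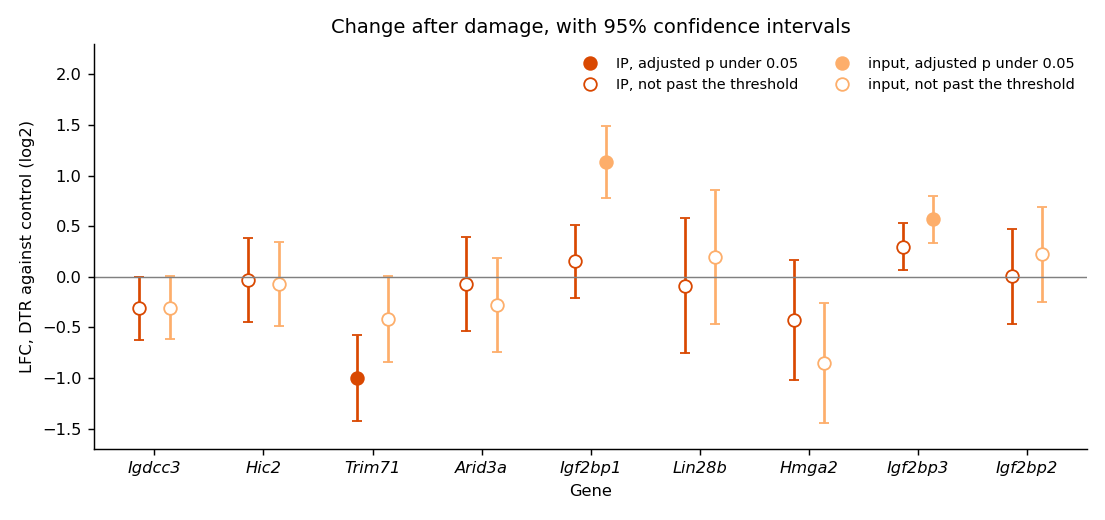
The LFC of DTR against control (y axis, log2) is plotted for the 9 tested genes in IP and in input with 95% confidence intervals from limma, and filled points mark an adjusted p under 0.05. Trim71 in IP (-1.0) and Igf2bp1 (1.14) and Igf2bp3 (0.57) in input are filled.

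In the whole homogenate, DTR input against control input, 2 of the 9 genes rose and none fell, where 7.17% of all tested genes rose and 5.21% fell (limma, adjusted p under 0.05). Both were IGF2 mRNA-binding proteins. With the replicate block 2 rose and 2 fell, where 10.3% rose and 8.54% fell. The median LFC was -0.07 over the 9 genes and -0.02 over all tested genes.

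Igf2bp1 was at 10.2, 10.7, 13.9 and 13.8 CPM in control input and at 33.9, 29.4, 19.2 and 27.4 CPM in DTR input. All 4 DTR libraries were above all control libraries, and replicate 3 had the smallest step. The LFC was 1.14 ± 0.17 (SE, limma, adjusted p = 0.00013), that is 2.20-fold. Igf2bp3 was at 23.4, 24.9, 22.1 and 22.2 CPM in control input and at 40.9, 38.3, 28.6 and 32.3 CPM in DTR input, again without overlap. Its LFC was 0.57 ± 0.11 (SE, limma, adjusted p = 0.0016). Igf2bp2, the third of the family, was at 96.8 ± 12.4 CPM in control input and 114 ± 24.1 CPM in DTR input (SD, n = 4), an LFC of 0.22 with a 95% confidence interval from -0.25 to 0.69. It was higher in DTR in all 4 pairs of the same number, at 113 and 142, 97.0 and 121, 83.7 and 85.6, and 93.1 and 106 CPM, and with the block its SE went from 0.22 to 0.074 and its adjusted p was 0.052 by limma.

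Hmga2 had the lowest LFC of the 9 genes in input. It went from 4.58, 4.93, 1.72 and 2.98 CPM in control to 2.25, 1.46, 1.71 and 1.61 CPM in DTR, at 48 to 192 reads per library. Replicate 3 of control lay within the DTR range and the other 3 control libraries lay above it. The LFC of -0.85 ± 0.28 (SE, limma) had an adjusted p of 0.057, and of 0.0095 with the replicate block. It passed without control input replicate 3 (LFC -1.08, limma, adjusted p = 0.017) and, by smaller margins, without control IP replicate 1 (adjusted p = 0.048), control IP replicate 4 (adjusted p = 0.029) or DTR IP replicate 4 (adjusted p = 0.046), all by limma. It also passed by DESeq2 (LFC -1.04, adjusted p = 0.011), with a pseudocount of 0.1 (limma, adjusted p = 0.039), with the compared groups alone (limma, adjusted p = 0.040) and with length and GC trends removed (limma, adjusted p = 0.043). Igdcc3 in input had an LFC of -0.30 ± 0.15 (SE, limma, adjusted p = 0.23), and an adjusted p of 0.028 with the block. Arid3a was lower without overlap, at 8.12 to 8.46 CPM in control input and 6.18 to 8.01 CPM in DTR input. Its LFC of -0.27 did not pass (limma, adjusted p = 0.52, and 0.088 with the block).

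Marker lists differed between the inputs too. Of the 5 markers of GLAST+ supporting and GER cells, Sox2 (LFC -1.05) and Tecta (LFC -1.10) fell and Otoa (LFC 0.46) rose (limma, adjusted p under 0.05). Their summed level was 4491 to 7770 CPM in control and 3447 to 4212 CPM in DTR, of which Tecta alone had means of 3932 and 2085 CPM. Schwann cell markers were lower in DTR input for 4 of 5 (summed 2421 to 4340 CPM in control, 1203 to 1941 CPM in DTR), and macrophage markers were higher for 2 of 5 (summed 63.7 to 71.4 CPM in control, 79.3 to 130 CPM in DTR). Mesenchyme and cartilage markers were higher for 1 of 7 and 1 of 4. Their part in the changes of Igf2bp1 and Igf2bp3 in input was not tested.

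**Figure D5:**
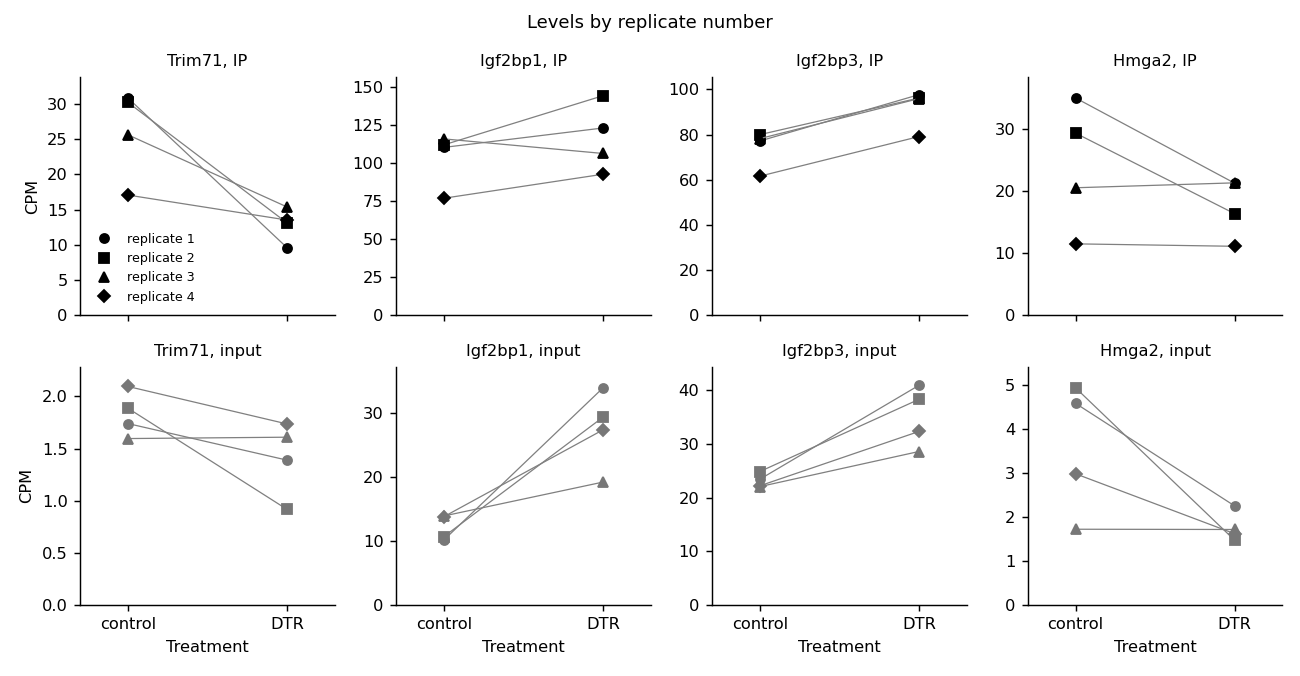
CPM (y axes, from 0) of Trim71, Igf2bp1, Igf2bp3 and Hmga2 is plotted in control and DTR, IP in the upper panels and input in the lower ones, with lines joining libraries of the same replicate number. Trim71 in IP falls on all 4 lines, Igf2bp1 and Igf2bp3 in input rise on all 4, and Hmga2 in input stays near 1.7 CPM on the line of replicate 3.

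The interaction asked whether IP over input differed between DTR and control. It shares its libraries with the contrasts that picked the genes. None of the 9 genes passed, and 2 of all tested genes did, Gm34653 and Trh, which is 0.0118% (limma, adjusted p under 0.05). At an unadjusted p under 0.05 there were 870 tested genes, and the replicate block gave 40 calls, edgeR none and DESeq2 49. Igf2bp1 had the smallest p of the 9 genes. Its ratio of IP to input CPM was 10.9, 10.5, 8.33 and 5.57 in the control pools and 3.62, 4.91, 5.53 and 3.38 in the DTR pools, lower in each pair of the same number. The difference was -0.98 ± 0.24 on the log2 scale (SE, limma, adjusted p = 0.28), with an adjusted p of 0.063 with the pool as a block and of 0.027 by DESeq2, where it was called. For Trim71 the difference was -0.58 ± 0.29 (SE, limma, adjusted p = 0.98), and for Hmga2 it was 0.42 ± 0.40 (SE, limma, adjusted p = 0.999).

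The levels of Igdcc3 and Igf2bp1 were each most like those of other genes with a high IP over input. Over the 16 libraries, the log2 level of Igdcc3 correlated most closely with that of Fam222b (r = 0.999), Prss8, Lmbr1l, Zfp710 and Sox5, none of which has an 8mer. The closest to Igf2bp1 were Ikzf4 (r = 0.987), Fbxl12, Gga3, Ccdc28a and Rbm38, and Fbxl12 and Rbm38 have 1 8mer each. The LFC in input after damage of these 5 ran from 0.40 for Fbxl12 to 0.89 for Ikzf4, beside 1.14 for Igf2bp1. They were picked by likeness over all 16 libraries, DTR input included, so their rise in input is not independent of that choice. The coefficients mostly carry the distance between IP and input that all these genes share.

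A list of 30 further known let-7 targets, all tested, was set beside these genes. Their median LFC of IP over input was 0.86 in control and 0.95 in DTR. In control 9 of 30 reached 2, where 0.824% of all tested genes did. Named after their values were seen, these were Fign, Nr6a1 and Fignl2 with 3 8mers each, Prtg, Cdc34 and Ccnj with 1 each, and Arid3b, Plagl2 and E2f5 with none. The list of 30 too was drawn up with earlier results of these data known, so its IP over input values are a description and carry no test. In IP after damage 4 of 30 rose and 1 fell, where 8.44% of all tested genes rose and 7.30% fell. In input 3 of 30 rose and none fell, where 7.17% rose and 5.21% fell. Rrm2, a subunit of the enzyme that makes deoxyribonucleotides, rose from 8.47 ± 1.37 to 25.4 ± 7.16 CPM in IP (SD, n = 4; LFC 1.41, limma, adjusted p = 5.1e-06). E2f5, a cell cycle transcription factor, rose in IP by an LFC of 0.62 (limma, adjusted p = 0.010) and in input by 1.42. Mycn, a transcription factor of proliferating progenitors, fell by 0.70 on the log2 scale in IP (limma, adjusted p = 0.048). The other 2 that rose in IP, named after their values were seen, were the cyclin gene Ccnd2 and the receptor gene Igf1r, at an LFC of 0.49 and 0.35.

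The genes that make and use let-7 were the last list. Of 14 genes for microRNA processing, let-7 uridylation and Argonaute proteins, 13 were tested. None passed in IP (limma, adjusted p under 0.05), where 8.44% of all tested genes rose and 7.30% fell. In input 1 fell, Ago1, by 0.44 on the log2 scale (limma, adjusted p = 0.022), where 5.21% of all tested genes fell. Ago2, the Argonaute that cuts its targets, was the one gene of the list with an LFC of IP over input of at least 2, at 3.42 in control and 3.36 in DTR. Of 11 genes named Mirlet7, 7 had reads, the highest value was 1.16 CPM and 1 was tested, and mature let-7 was not measured in these libraries.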

How the data were processed

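RNA of 16 libraries was analysed, 4 per group of genotype and RNA source, with groups taken from the sample labels; the fourth replicate carries the number 6 in the deposited columns. Libraries were made with SMART-Seq v4. The authors aligned reads to GRCm38 with HISAT2 (the submitters' notes name TopHat), used HTSeq for gene counts, and deposited these as CPM; strand setting and annotation release are not given in the sources used here. In every library 100% of values were whole multiples of 1 read (tolerance 0.05 reads), so reads were recovered for the count tools. Of 50316 listed genes, 2587 were NA. At these depths, 3 reads were worth 0.0715 to 0.107 CPM, which covers counting error only.

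CPM were quantile normalised over all genes with values, as in the study, and taken to log2 after adding 0.5. The 16994 genes at 0.5 CPM or more in every replicate of 1 group were fitted with limma 3.58.1 (R 4.3.3; group means over the 16 libraries, mean-variance trend, two-sided, Benjamini-Hochberg over all tested genes); a call is an adjusted p under 0.05. Replicates are pools of cochleae. The main fit took 1 spread for each gene from the libraries of all 4 groups, so a p-value in input also rests on the scatter of IP. It treated the input and IP of a pool as independent. IP over input has no test, since it picked the genes. Input and IP of a number come from 1 homogenate. Deviations from group means correlated for each number between control IP and DTR IP (r from 0.31 to 0.56) and between the inputs (0.29 to 0.44), so the numbers were used as a block in an alternative fit. Other alternatives were other scalings, pseudocounts of 0.1 and 1, no filter or 2 CPM, the compared groups alone, length and GC trends removed (splines with 5 degrees of freedom), edgeR 4.0.16 and DESeq2 1.42.0 on recovered reads, and each library left out. Tested on simulated data of 16994 genes, with 200 changed by 1 on the log2 scale, the limma fit recovered 69.5% for DTR IP against control IP, 72.0% for the inputs and 35.0% for the interaction. The simulated libraries were drawn independently around 1 mean per gene. They had no difference between IP and input and no correlation within pools or numbers, so the shares may differ in the real data.

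Named were the 10 genes, the listed let-7 genes with an adjusted p under 0.05 and an absolute LFC of at least 0.5 in DTR IP against control IP, and the 5 genes most like Igdcc3 and Igf2bp1. The genes and lists were chosen with earlier results of these data known. Sequences are from RefSeq and GENCODE M21.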

Additional observations from a re-analysis of the deposited data

Results flagged for a closer look

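In 3 of the 36 sets of 4 libraries checked (9 genes in 4 groups), 1 library stood apart, its gap to the nearest library being most of the group's range, and chance alone marks about 1 in 20 sets. All 3 were the IP library of replicate 4. For Igf2bp1 in control IP it was at 76.8 CPM and the others between 110 and 116 CPM, a gap of 0.857 of the range. For Igf2bp3 in control IP it was at 61.6 CPM and the others between 77.1 and 80.0 CPM (0.847), and in DTR IP at 79.1 CPM and the others between 95.9 and 97.7 CPM (0.906). Replicate 4 held the lowest IP level of 9 of 9 tested genes in control and of 8 of 9 in DTR, and of 0 and 1 of 9 in the input libraries. Without all libraries of replicate 4, a choice made after seeing the data, the calls after damage were still Trim71 in IP and Igf2bp1 and Igf2bp3 in input.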

How the results depend on the processing

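No LFC of the 9 genes that passed the threshold lost its call or its direction under any alternative, and no call reversed. The number changed in IP, 1, was 2 with median-centred libraries, edgeR and DESeq2 and 3 with the replicate block. In input the number, 2, was 4 with the replicate block and 3, with Hmga2 added, with a pseudocount of 0.1, the compared groups alone, length and GC trends removed and DESeq2. The block changed no other call among the 9 genes. The interaction, with 0 of the 9, gave 1 by DESeq2 (Igf2bp1). Leaving out 1 library, or all of replicate 4, gave 1 in IP, 2 to 3 in input and 0 for the interaction. Over all tested genes, the calls in IP went from 2674 to 4172 with the block, and in input from 2104 to 3202; leaving out libraries gave 2056 to 2745 and 1557 to 2270. The 2 interaction calls became 1 without quantile normalization or with length and GC trends removed, 3 with median centring or a pseudocount of 1, 0 with a pseudocount of 0.1, no filter or edgeR, 40 with the block, 49 by DESeq2, and 0 to 6 when leaving out libraries. IP over input moved by more than the spread between pools for Igf2bp3 in control with length and GC trends removed (1.79) and for Trim71 in control by edgeR (3.88) and DESeq2 (3.86). All 10 genes held a let-7 match under each definition. Depth limits Lin28a, with 0 to 32 reads per library, and the input values of Trim71, with 30 to 81.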
